A study of Mus musculus with 4 samples.

Results

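The genes described here are 34 interferon-stimulated genes, followed across the cell types of newborn mouse kidney. They were chosen by name, as the rows of the expression matrices whose gene symbol belongs to a set list. The list was drawn up with earlier results of these data known. All 34 symbols were found, each in 1 row, among 31053 genes. Cells from whole newborn kidneys were captured in droplets and their RNA was sequenced in 2 libraries, 1 per genotype. The control library came from newborn kidney carrying Six2Cre, a recombinase transgene driven by Six2, which is active in nephron progenitors and so acts in them and in the cells that descend from them. The other library, called floxed below, came from newborn kidney with Six2Cre and floxed alleles of both Tet2 and Tet3 (Six2CreTet2/3f/f), which encode enzymes that oxidise methylated cytosine. Both groups carry Six2Cre, and macrophages, endothelium and stroma are not labelled as targets of it. The labels do not say how many animals a library came from. With 1 library per genotype nothing below has a replicate check, no test across animals could be made, and every interval is a 95% interval for counting error alone. The series also holds 2 bisulfite sequencing samples, which were not analysed here.

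Interferons are secreted proteins that bind receptors on most cells. Type I interferon activates the kinases JAK1 and TYK2, which send a complex of transcription factors into the nucleus that binds the interferon-stimulated response element in the promoters of its target genes. The products of those genes sense foreign nucleic acid, block viral entry, translation or budding, and in part feed back on the pathway. Low constant interferon signalling is known to keep some of these transcripts present without infection, in macrophages among other cells.

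Promoter sequences show what the genes share. RefSeq promoter windows (GRCm38.p6, 250 bases before to 50 bases after a gene's start, 300 bases in all) were available for 27 of the 34 genes, in 31 windows, and 7 genes had none in the table: Ifi27l2a, Rtp4, Usp18, Parp9, Parp14, Ly6e and Zbp1. The core letters of the interferon-stimulated response element, GAAA, any 2 bases, then GAAA, were searched on both strands. They occurred in the windows of 14 of the 27 genes (51.9%) and of 1079 of all 27025 genes with a window (3.99%). Shorter letters for the gamma-activated site, TTCNNNGAA, which reads the same on both strands, occurred in 8 of 27 (29.6%) against 9.55% of all genes. Matches of both motifs can overlap, since each can hold GAA. The following sites belong to genes on which the results below turn. Capitals mark the matched letters and each line reads 5′ to 3′ on the gene's own strand.

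Isg15: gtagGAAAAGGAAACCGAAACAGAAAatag
Bst2: attccagGAAAATGAAACTGAAAggctgca
Ifit1: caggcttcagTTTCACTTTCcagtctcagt
Ifit3: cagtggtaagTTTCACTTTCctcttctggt
Rsad2: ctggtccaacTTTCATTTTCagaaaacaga
Gbp3: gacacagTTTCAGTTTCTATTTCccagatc
Oas1a: ttctcggGAAATGGAAACTGAAAatctact

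The Isg15 site (chr4:156200871-156200900, minus strand) held 3 overlapping matches in a run of 22 bases, the first of which began 78 bases before the start of the gene. Bst2 (chr8:71537580-71537609, minus strand) had 2 overlapping matches beginning 130 bases upstream. Gbp3 (chr3:142559992-142560021, plus strand) and Oas1a (chr5:120907523-120907552, minus strand) also held 2 each. Ifit1 (chr19:34640775-34640804, plus strand), Ifit3 (chr19:34583363-34583392, plus strand) and Rsad2 (chr12:26456553-26456582, minus strand) are shown with 1 match in the opposite orientation. Ifit1 and Ifit3 each held a second such site. A match is a run of letters and not evidence of binding.

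The matrices held 25736 control barcodes with 197745868 UMIs (unique molecular identifiers, each counted once per captured transcript) and 22543 floxed barcodes with 115427704 UMIs. After filtering, 19493 control cells (median 5993 UMIs) and 14393 floxed cells (median 4781 UMIs) were kept, and 174 barcodes occurred in both matrices. Per the labels 10000 cells were loaded for each library, fewer than the barcodes in either matrix. Cells were clustered without the 34 genes and without the other interferon pathway genes, so a cell's class did not depend on them. Of 27 clusters, 24 were named from markers as 14 classes, and the names are class-like because they were rebuilt from expression. Some names are loose. The lymphocyte-like cluster (46 control and 51 floxed cells) was led by the mast cell genes Cma1, Cpa3 and Tpsb2 beside lymphocyte markers, and 1 of 3 progenitor-like clusters also scored for stroma. Levels are given as CPM, the UMIs of a gene per 1000000 UMIs of a class. The class of ureteric bud and collecting duct is called collecting system-like below.

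Of the 34 genes, 29 reached 5 CPM over all kept cells, and each of the 29 had its lower level in the floxed library. Their median log2 ratio of floxed over control was -0.998, against -0.004 over all 11117 genes at that level. These pooled levels also depend on class make-up, whose part was not tested. Endothelium-like cells made up 14.8% of control and 10.7% of floxed cells, and macrophage-like cells 3.50% and 3.96%. A size rule was applied within each class. It asked for 25 CPM or more in whichever library was higher, with the whole interval of the ratio beyond 1.5-fold. In macrophage-like cells (683 control and 570 floxed) 25 of 30 genes at that level were lower in the floxed library, against 3.07% of all genes. The endothelium-like class (2890 and 1533 cells) had 17 of 26 lower, against 1.67% of all genes. Stroma-like cells (4484 and 3369) had 8 of 11 lower, against 1.69%. No gene of the 34 passed the rule as higher in any of the 14 classes. Among all genes 2.13% passed as higher in macrophage-like, 1.47% in endothelium-like, 1.35% in stroma-like and 2.04% in progenitor-like cells, 1.26% in committed nephron-like, 1.21% in podocyte-like, 2.08% in proximal tubule-like and 1.73% in loop and distal tubule-like cells. The shares were 2.38% in collecting system-like, 0.977% in neutrophil-like, 1.00% in mural and renin cell-like, 2.03% in erythroid-like, 1.43% in lymphocyte-like and 1.70% in urothelium-like cells, and 1.98% over all kept cells.

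Counts were smaller elsewhere, where fewer of the 34 reached the level or fewer cells were measured. Neutrophil-like cells had 4 of 14 lower (1.12% of all genes), mural and renin cell-like cells 4 of 12 (0.587%) and erythroid-like cells 3 of 6 (0.530%). Among cells of the nephron lineage, progenitor-like cells had 3 of 5 lower (1.49%), podocyte-like 3 of 6 (1.60%), loop and distal tubule-like 2 of 5 (2.54%), committed nephron-like 1 of 3 (0.710%) and proximal tubule-like 1 of 4 (1.94%). Collecting system-like cells had 1 of 4 lower (1.76%), lymphocyte-like cells 2 of 14 (0.650%) and urothelium-like cells 1 of 11 (1.98%). In the unnamed clusters the counts were 6 of 15 in cluster 0 (lower 0.568% and higher 0.783% of all genes), 4 of 8 in cluster 11 (1.80% and 1.61%) and 3 of 4 in cluster 14 (1.48% and 0.866%), and none was higher. Over all kept cells 8 of 11 were lower (2.04%).

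**Figure D1:**
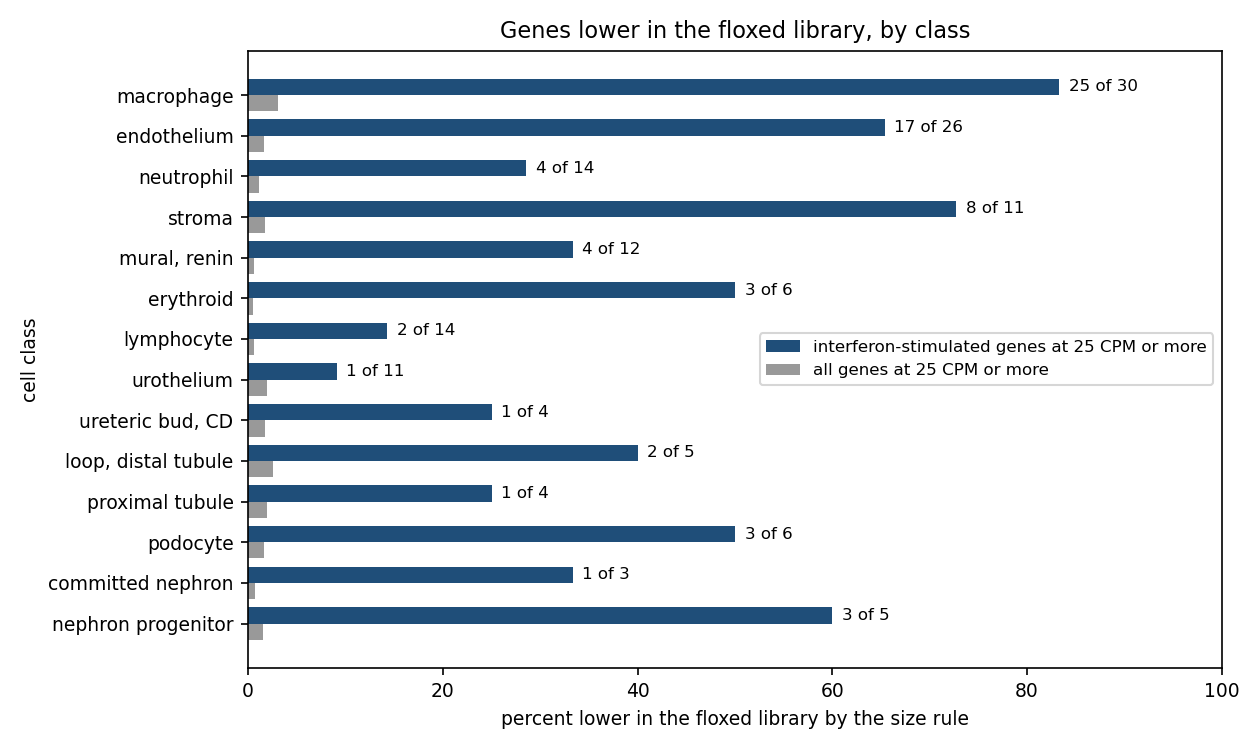
Percent of the interferon-stimulated genes (blue, with counts) and of all genes (grey) at 25 CPM or more that were lower in the floxed library by the size rule, for each cell class (CD, collecting duct), with 1 library per genotype. The blue bars are longest in macrophage-like (25 of 30), stroma-like (8 of 11) and endothelium-like cells (17 of 26).

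The plot of called genes by class puts these counts beside the share of all genes. The median log2 ratio of floxed over control, over those of the 34 that reached 5 CPM in a class, was -1.94 in macrophage-like cells (34 genes), -1.10 in endothelium-like (32), -1.09 in stroma-like (28) and -0.79 in progenitor-like cells (16). Over all genes at that level the medians in these 4 classes lay between -0.06 and 0.05. Smaller medians were found in committed nephron-like cells (-0.26) and collecting system-like cells (-0.22). Lymphocyte-like cells had a median of 0.25, with 13 genes negative and 16 positive. Genes with 0 UMIs entered it at a floor of 3 UMIs, which is 15.4 CPM in the floxed library of this small class. Genes absent from that library could thus count as positive, such as Ifi44 with 2 control and 0 floxed UMIs. In these cells the 34 genes summed to 1921 and 1431 CPM, and 2 ratios had an interval below 1 and 0 above. The 34 genes together summed to 7210 CPM in control and 2643 CPM in floxed macrophage-like cells, 4981 and 2953 CPM in endothelium-like cells, 1822 and 910.5 CPM in stroma-like cells, and 436 and 291 CPM in progenitor-like cells. In each of the 27 clusters the sum was lower in the floxed library, by 1.08-fold to 2.85-fold.

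The control level stood highest in macrophage-like cells for 27 of the 34 genes. How many of all genes have their highest control level in that class was not counted. Endothelium-like cells had the highest control level of Rsad2, Ifi44, Cmpk2 and Gbp3, neutrophil-like cells that of Irf1 and Irf9, and lymphocyte-like cells that of Trim25. These orders are within a gene. The top class did not differ from the next beyond counting error for Trim25, Irf1, Irf9, Gbp3 and Cmpk2, nor, among the genes led by macrophage-like cells, for Oasl1, Ifih1, Ddx58 and Gbp2. Irf9, for example, stood at 49.3 CPM in neutrophil-like control cells, from 17 UMIs, and at 43.6 CPM in macrophage-like ones.

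**Figure D2:**
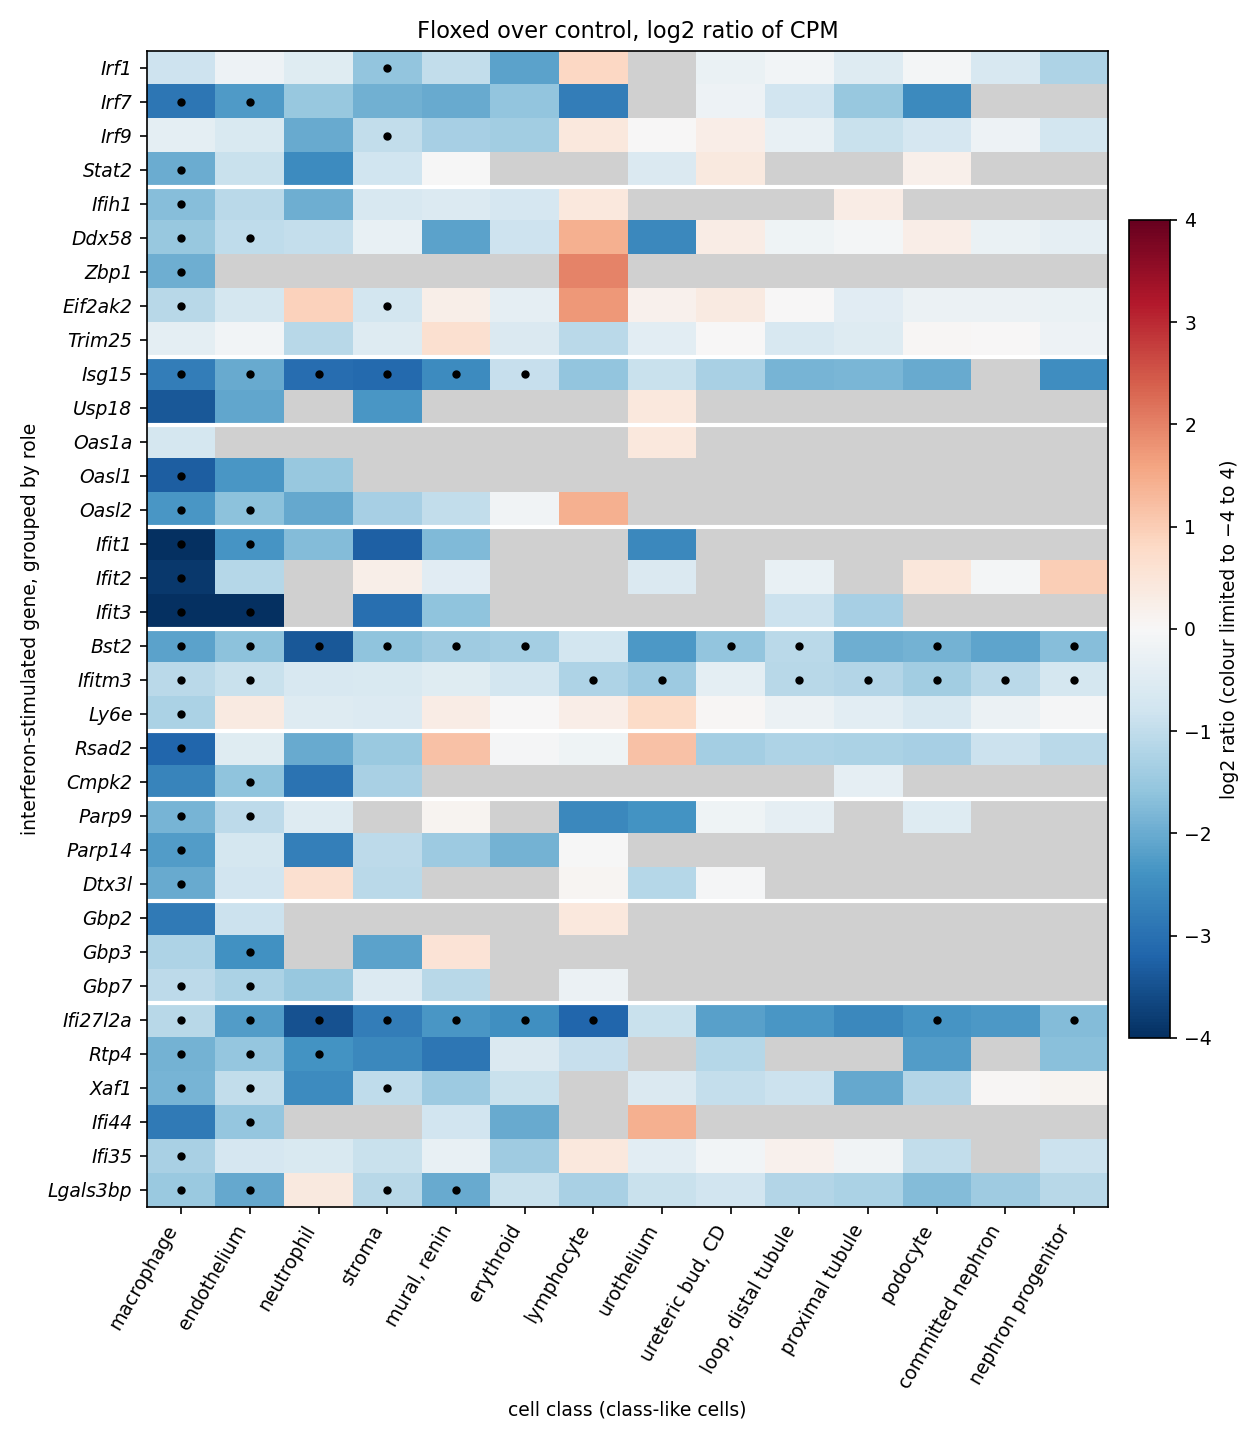
Log2 ratio of CPM, floxed over control, for each interferon-stimulated gene (rows, grouped by role) in each cell class (columns). Blue is lower in the floxed library and dots mark genes past the size rule. Grey marks genes under 5 CPM in both libraries or with 0 UMIs in either library. The macrophage column is blue throughout, and Isg15, Bst2 and Ifi27l2a are blue in each class where they have a colour.

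Among the transcription factors of the response, Irf7, which amplifies interferon production, stood at 197 CPM in control and 26.7 CPM in floxed macrophage-like cells, 7.37-fold lower (interval 5.61 to 9.84). In endothelium-like cells Irf7 stood at 41.1 and 8.46 CPM, 4.86-fold lower (3.67 to 6.55). Stat2, a transcription factor activated by type I interferon, was lower by the rule in macrophage-like cells, at 44.6 and 11.2 CPM. Irf9, which binds DNA at the response element, stood at 43.6 and 33.3 CPM there, with an interval of the fold that included 1 (0.978 to 1.77). Irf9 was lower by the rule in stroma-like cells, at 26.7 and 13.5 CPM. So was Irf1, a factor induced by interferon gamma, at 38.6 and 12.9 CPM in stroma-like cells. In endothelium-like cells Irf1 stood at 27.2 and 23.8 CPM, and its log2 ratio was 1.39 lower in stroma-like than in endothelium-like cells (interval of the difference -1.72 to -1.05).

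Sensors of nucleic acid were mostly lower in macrophage-like cells. Zbp1, a sensor of Z-form nucleic acid, stood at 89.8 and 23.0 CPM, and its next highest control level was 3.87 CPM, in lymphocyte-like cells. Ifih1, which encodes the RNA sensor MDA5, stood at 52.1 and 15.9 CPM, and Ddx58, which encodes RIG-I, at 43.3 and 14.998 CPM. Ddx58 was also lower in endothelium-like cells, at 39.0 and 19.5 CPM. Eif2ak2, which encodes the RNA-activated kinase PKR, stood at 87.0 and 40.3 CPM in macrophage-like cells and in stroma-like cells at 42.3 and 25.3 CPM. Trim25, a ubiquitin ligase that acts on RIG-I, passed the rule in no class, and in macrophage-like cells it stood at 51.8 and 39.4 CPM.

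Isg15, a ubiquitin-like protein that is attached to other proteins, was lower by the rule in 6 classes. Macrophage-like cells had 237 CPM in control and 34.7 CPM in floxed, 6.83-fold lower (5.38 to 8.80). In endothelium-like cells Isg15 stood at 146 and 36.5 CPM, 4.004-fold lower (3.50 to 4.60), and in stroma-like cells at 36.0 and 4.15 CPM, 8.69-fold lower (6.86 to 11.1). The stromal log2 ratio was 1.12 below the endothelial one (interval -1.51 to -0.73). Erythroid-like cells had the second highest control level, 186 CPM, and 98.9 CPM in floxed, a smaller fold of 1.88 (1.51 to 2.34). In mural and renin cell-like cells Isg15 stood at 51.0 and 8.84 CPM, and in neutrophil-like cells at 75.5 and 9.07 CPM, the latter from 26 and 3 UMIs. Usp18, the protease that removes ISG15, did not reach 25 CPM in any class. Its macrophage levels rested on 78 control and 5 floxed UMIs, 24.5 and 2.34 CPM.

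Of the oligoadenylate synthetase family, Oasl1 and Oasl2 were lower in macrophage-like cells, at 36.7 and 3.75 CPM and at 106 and 21.1 CPM. Oas1a, which makes the messenger that activates RNase L, stood at 32.0 and 19.7 CPM there, 1.63-fold lower with an interval of 1.13 to 2.39, so it did not pass. Oasl2 was also lower in endothelium-like cells, at 41.3 and 13.2 CPM.

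The Ifit genes, whose products bind viral RNA, had the 3 largest folds in macrophage-like cells. Ifit3 stood at 201 CPM in control and 7.03 CPM in floxed, from 639 and 15 UMIs, 28.5-fold lower (17.2 to 51.3). Ifit1 stood at 65.3 and 2.34 CPM, from 208 and 5 UMIs, 27.9-fold lower (11.8 to 86.7). Ifit2 stood at 95.7 and 6.56 CPM, 14.6-fold lower (8.56 to 27.0). These folds rest on few floxed UMIs, and their intervals overlap. In endothelium-like cells Ifit3 stood at 33.6 and 2.07 CPM and Ifit1 at 32.2 and 6.22 CPM. The Ifit1 log2 ratio was 2.43 higher there than in macrophage-like cells (1.07 to 3.79), whereas for Ifit3 the interval of that difference included 0 (-0.27 to 1.90). Ifit3 has a near-identical copy, Ifit3b, so the division of reads between them is uncertain.

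Membrane proteins that restrict viruses reached the level in many classes, Ifitm3 and Ly6e in 14 and Bst2 in 12. Bst2, which tethers budding virions to the cell, was lower by the rule in 10 classes. It stood at 569 and 129.8 CPM in macrophage-like cells, 4.38-fold lower (3.86 to 4.99), at 521 and 166 CPM in endothelium-like cells, 3.14-fold lower (2.95 to 3.36), and in the stroma-like class at 143 and 46.6 CPM, 3.07-fold lower (2.85 to 3.31). Among epithelial classes past the rule it stood at 30.3 and 8.13 CPM in podocyte-like, 43.7 and 14.7 CPM in collecting system-like and 33.5 and 15.9 CPM in loop and distal tubule-like cells. The 11 endothelial markers were lower there too, at a summed 161 and 83.2 CPM in podocyte-like (10 of 11 higher in the control library), 143 and 71.9 CPM in collecting system-like (11 of 11) and 201 and 78.4 CPM in loop and distal tubule-like cells (11 of 11), and their part in the result was not tested. The endothelial and stromal log2 ratios of Bst2 did not differ beyond counting error (difference 0.03, -0.11 to 0.17). Ifitm3, which hinders fusion of viruses in endosomes, was lower by the rule in 9 classes, with smaller folds. Macrophage-like cells had 2031 and 958 CPM of Ifitm3, 2.12-fold lower (2.02 to 2.23), and endothelium-like cells 1932 and 1045 CPM, 1.85-fold lower (1.80 to 1.90). Stroma-like cells, at 794 and 526 CPM, lay just short of the rule with a fold of 1.51 (1.47 to 1.55). In podocyte-like cells Ifitm3 stood at 145 and 55.7 CPM and in proximal tubule-like cells at 98.1 and 43.7 CPM.

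The nucleotide enzymes Rsad2, also called viperin, which makes a chain-terminating nucleotide, and Cmpk2, a mitochondrial nucleotide kinase, lie next to each other on chromosome 12 (Rsad2 from 26442743 to 26456452 and Cmpk2 from 26469117 to 26479837, GRCm38.p6). Cmpk2 was lower in endothelium-like cells, at 29.5 and 9.74 CPM (3.03-fold, 2.32 to 4.02). Rsad2 was lower in macrophage-like cells, at 106 and 11.7 CPM (9.06-fold, 6.03 to 14.2). Its endothelial levels of 678 and 486 CPM had a ratio of 0.717 (0.688 to 0.746) and did not pass.

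Genes of ADP-ribosylation were lower in macrophage-like cells. Parp14 stood at 97.0 and 20.6 CPM, Parp9 at 50.9 and 14.1 CPM, and Dtx3l, the ubiquitin ligase that pairs with PARP9, at 61.2 and 14.998 CPM. Parp9 was also lower in endothelium-like cells, at 36.1 and 17.6 CPM. The gene models of Parp9 and Dtx3l overlap on chromosome 16. Among the guanylate-binding GTPases, Gbp7 was lower in macrophage-like cells, at 132 and 63.7 CPM, and in endothelium-like cells, at 48.8 and 20.1 CPM. Gbp3 was lower in endothelium-like cells, at 30.9 and 5.75 CPM (5.38-fold, 3.84 to 7.77), and reached 26.4 and 11.2 CPM in macrophage-like cells without passing. Gbp2 stayed under 25 CPM in all classes, with 23.2 and 3.28 CPM in macrophage-like cells. The Gbp genes resemble each other, so read assignment among them is uncertain.

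Ifi27l2a, a small mitochondrial protein of the ISG12 family, was lower by the rule in 9 classes. Among these 9 its fold was smallest in macrophage-like cells, where its control level was highest: 1099 and 504 CPM in macrophage-like cells, 2.18-fold (2.04 to 2.34), against 287 and 42.1 CPM in the stroma-like class, 6.81-fold (6.32 to 7.34). The difference of these log2 ratios was -1.64 (-1.79 to -1.50). Ifi27l2a also stood at 273 and 24.2 CPM in neutrophil-like cells and at 35.8 and 7.66 CPM in endothelium-like cells. It has a close copy, Ifi27l2b, next to it.

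Of the remaining induced genes, Rtp4, a receptor transporter, was lower in macrophage-like (181 and 48.3 CPM), endothelium-like (73.5 and 25.4 CPM) and neutrophil-like cells (63.9 and 12.1 CPM). Xaf1, a partner of the apoptosis inhibitor XIAP, was lower in macrophage-like (119.6 and 32.8 CPM), endothelium-like (101 and 51.5 CPM) and stroma-like cells (29.4 and 14.7 CPM). Ifi35 passed in macrophage-like cells, at 93.9 and 38.0 CPM. Lgals3bp, a secreted glycoprotein, passed in 4 classes, namely macrophage-like (226 and 81.1 CPM), endothelium-like (71.3 and 17.2 CPM), stroma-like (68.7 and 32.0 CPM) and mural and renin cell-like cells (54.0 and 13.3 CPM). Ifi44 was mostly an endothelial transcript, at 136 and 46.8 CPM in endothelium-like cells (2.91-fold, 2.58 to 3.30) and at 6.59 and 0.937 CPM in macrophage-like cells.

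**Figure D3:**
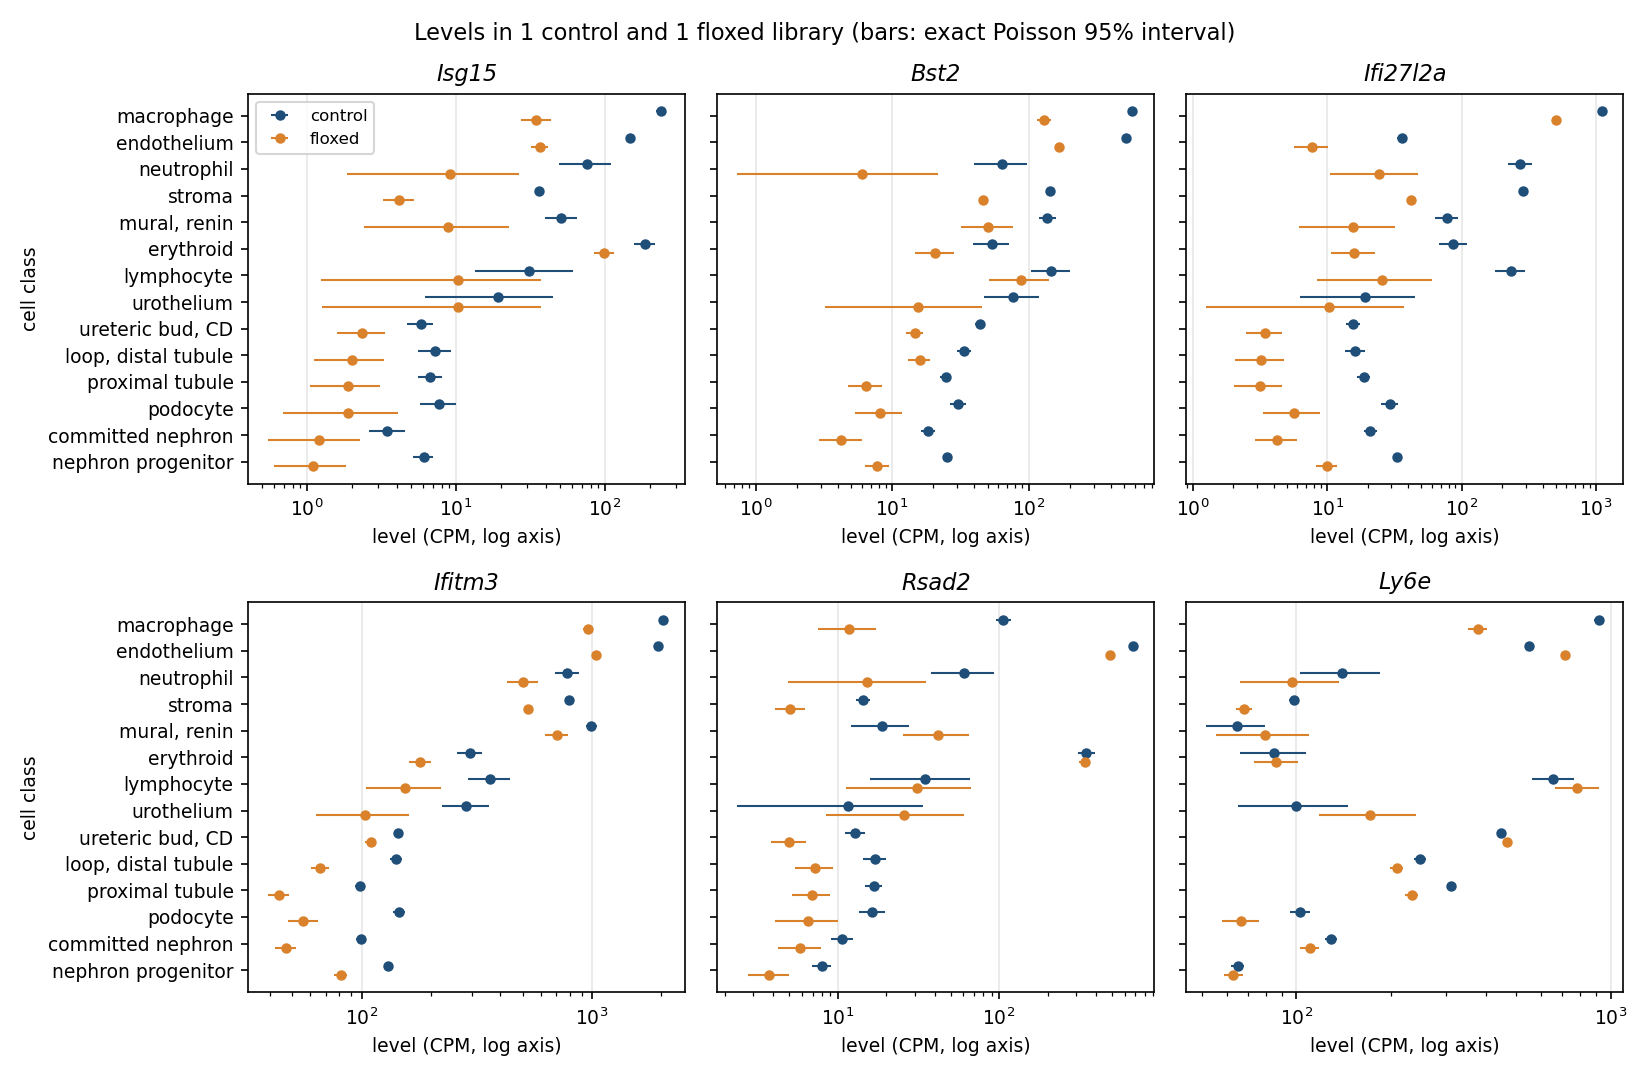
CPM (log axis) of 6 interferon-stimulated genes in each cell class, in the control library (blue) and the floxed library (orange), with exact Poisson 95% intervals. Isg15, Bst2, Ifi27l2a and Ifitm3 have the orange point to the left in each class. Rsad2 points nearly coincide in erythroid-like cells (348 and 339.9 CPM), and Ly6e has the orange point to the right in endothelium-like cells.

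The plot of levels by class contrasts 4 genes whose level was lower in each class with Rsad2 and Ly6e, for which this did not hold. By counting intervals Isg15 was lower in 12 of 14 classes, Bst2 and Ifi27l2a in 13 each and Ifitm3 in 14. Some of these levels rest on few UMIs, such as Isg15 with 5 and 2 in urothelium-like cells. Rsad2 was lower by its interval in 10 classes and higher in 1. Ly6e was lower in 6 and higher in 2. Ly6e, a membrane protein that limits entry of some viruses, stood at 914 and 378 CPM in macrophage-like cells, 2.42-fold lower (2.23 to 2.62). In endothelium-like cells it stood at 551 CPM in control and 713 CPM in floxed, a ratio of 1.29 (1.249 to 1.341), and in collecting system-like cells at 447 and 466 CPM, a ratio of 1.04 (1.01 to 1.08). The endothelial log2 ratio of Ly6e was 1.65 above the macrophage one (1.52 to 1.77). Progenitor-like cells had 65.1 and 63.1 CPM, with an interval of the ratio that included 1.

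Rsad2 was not lower by the rule in other classes of high control level. Erythroid-like cells had 348 and 339.9 CPM, a ratio of 0.978 (0.849 to 1.13), whereas in the same cells Isg15 and Bst2 were lower by the rule. In mural and renin cell-like cells Rsad2 stood at 18.8 and 42.0 CPM, from 25 and 19 UMIs, with a ratio of 2.24 (1.16 to 4.23) that did not pass the rule. In progenitor-like cells Ifit2 had 4.09 and 8.13 CPM, from 112 and 104 UMIs, a ratio of 1.99 (1.51 to 2.62) at a level under that of the rule. In collecting system-like cells Eif2ak2 stood at 33.7 and 43.6 CPM (ratio 1.29, 1.15 to 1.46) and Ddx58 at 16.4 and 20.1 CPM (ratio 1.23, 1.03 to 1.46). These 5 genes had an interval above 1 in a class where they reached 5 CPM.

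Trim25 and Oas1a passed the rule in no class although they reached 25 CPM, and Usp18 and Gbp2 never reached it. The other 30 genes were lower in at least 1 class. Irf1 and Irf9 passed in stroma-like cells alone.

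Cells of the Six2 lineage held low levels of these genes. In progenitor-like cells (2794 control and 1782 floxed) Ifi27l2a stood at 33.0 and 9.93 CPM, 3.32-fold lower (2.76 to 4.03), Ifitm3 at 131 and 81.0 CPM, 1.62-fold lower (1.51 to 1.73), and Bst2 at 25.4 and 7.82 CPM, 3.25-fold lower (2.64 to 4.05). Bst2 thus passed the level of 25 CPM by a small margin, and the count of 3 genes dropped to 1 under 4 other settings, among them leaving doublets in. Isg15 stood at 6.06 and 1.09 CPM there, from 166 and 14 UMIs. The Bst2 ratio in progenitor-like cells did not differ beyond counting error from that in stroma-like cells (difference of log2 ratios -0.08, -0.40 to 0.24) or endothelium-like cells (-0.05, -0.37 to 0.27). RNA of other cell types also differed between the libraries in progenitor-like cells. The summed level of 11 endothelial markers was 115 and 67.1 CPM, with 11 of 11 higher in the control library, while 11 macrophage markers summed to 33.6 and 34.2 CPM and 8 erythroid markers to 1428 and 4905 CPM. None of the endothelial, macrophage or erythroid markers was at 0. The part of such RNA in the low levels of these genes in progenitor-like cells was not tested. Immediate early genes of dissociation stress were lower too. In progenitor-like cells 4 of 8 passed the rule (Fos, Fosb, Jun and Egr1, against 1.49% of all genes) and in stroma-like cells 7 of 8 (1.69%). Endothelium-like cells had 1 of 9 (1.67%) and macrophage-like cells 0 of 10 (3.07%). Stroma-like cells also held endothelial marker RNA at a summed 186 and 127 CPM, with 10 of 11 markers higher in the control library, against 45.4 and 44.6 CPM of macrophage markers. In endothelium-like cells the macrophage markers summed to 69.3 and 71.7 CPM. The part of these differences in the results was not tested.

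Transcripts of the targeted genes were read in 3′ counts, which need not cover a deleted exon. In progenitor-like cells Tet3 stood at 91.3 and 42.8 CPM, lower by the rule, and Tet2 at 28.8 and 24.4 CPM, not called. In macrophage-like cells Tet3 stood at 76.3 and 55.3 CPM and Tet2 at 59.0 and 31.4 CPM, and in endothelium-like cells Tet3 stood at 67.3 and 51.1 CPM and Tet2 at 33.9 and 23.8 CPM. Each of these 4 levels was lower in the floxed library, and none passed the rule, which asks for an interval wholly beyond 1.5-fold. The 34 genes lie on 15 chromosomes. Nearest to a targeted gene were Gbp7, Gbp3 and Gbp2, 8.99, 9.01 and 9.08 megabases from Tet2 on chromosome 3.

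Macrophage-like cells came from cluster 21 (348 control and 311 floxed cells) and the shallow cluster 20 (335 and 259). The rule called 27 of 32 genes lower in cluster 21, against 3.39% of all genes, and 13 of 20 in cluster 20, against 1.34%. Markers of the macrophage itself summed to 11288 and 14516 CPM, with 2 of 11 higher in the control library. Endothelial markers summed to 222 and 119.98 CPM and stroma markers to 555 and 384 CPM in these cells, each with 10 of 11 higher in the control library, and erythroid markers to 3389 and 8948 CPM. The part of this RNA in the result was not tested. Neutrophil markers stood at 454 and 3306 CPM, with 4.10% of control and 6.67% of floxed cells holding UMIs of at least 2 of them. Without those cells the neutrophil markers summed to 59.6 and 90.7 CPM, 25 genes were still lower and the median log2 ratio was -1.94. The share of all genes lower was 3.07% with those cells kept, and is not given here without them. In the endothelium-like clusters taken singly 13 of 23 genes were lower in cluster 1 (2.37% of all genes), 15 of 26 in cluster 16 (1.26%) and 17 of 26 in cluster 18 (0.989%).

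To see whether many cells or a few carried the difference, each cell was thinned to 2000 UMIs, and shallower cells were left out. A core of 15 of the 34 genes was used: Isg15, Ifit1, Ifit2, Ifit3, Irf7, Oasl1, Oasl2, Oas1a, Rsad2, Usp18, Cmpk2, Ifi44, Rtp4, Xaf1 and Zbp1. In macrophage-like cells 88.6% of control cells (interval 85.3 to 91.4, 456 cells, 227 left out) and 34.1% of floxed cells (29.2 to 39.2, 364 cells, 206 left out) held at least 1 core UMI. At least 3 core UMIs were held by 56.1% and 2.47%. Without thinning 88.1% and 45.1% held at least 1. Isg15 alone was found in 36.2% of control and 5.22% of floxed thinned macrophage-like cells, and in 46.9% and 9.12% before thinning.

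Endothelium-like cells held a core UMI in 86.1% of control and 67.1% of floxed cells. Rsad2 was the most widely found of the core genes there. It was found in 63.4% of control and 55.4% of floxed thinned endothelium-like cells, against 1.66% and 0.798% of progenitor-like cells. With Rsad2 left out, the shares were 66.2% and 27.7% in endothelium-like cells and 87.3% and 33.0% in macrophage-like cells. Leaving Rsad2 out was chosen after its values were seen. Stroma-like cells then had 27.8% and 10.1%, and progenitor-like cells 8.11% and 5.36%. Progenitor-like cells, at median depths of 7889 and 6416 UMIs before thinning, are given for comparison, since free RNA adds UMIs to any droplet.

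**Figure D4:**
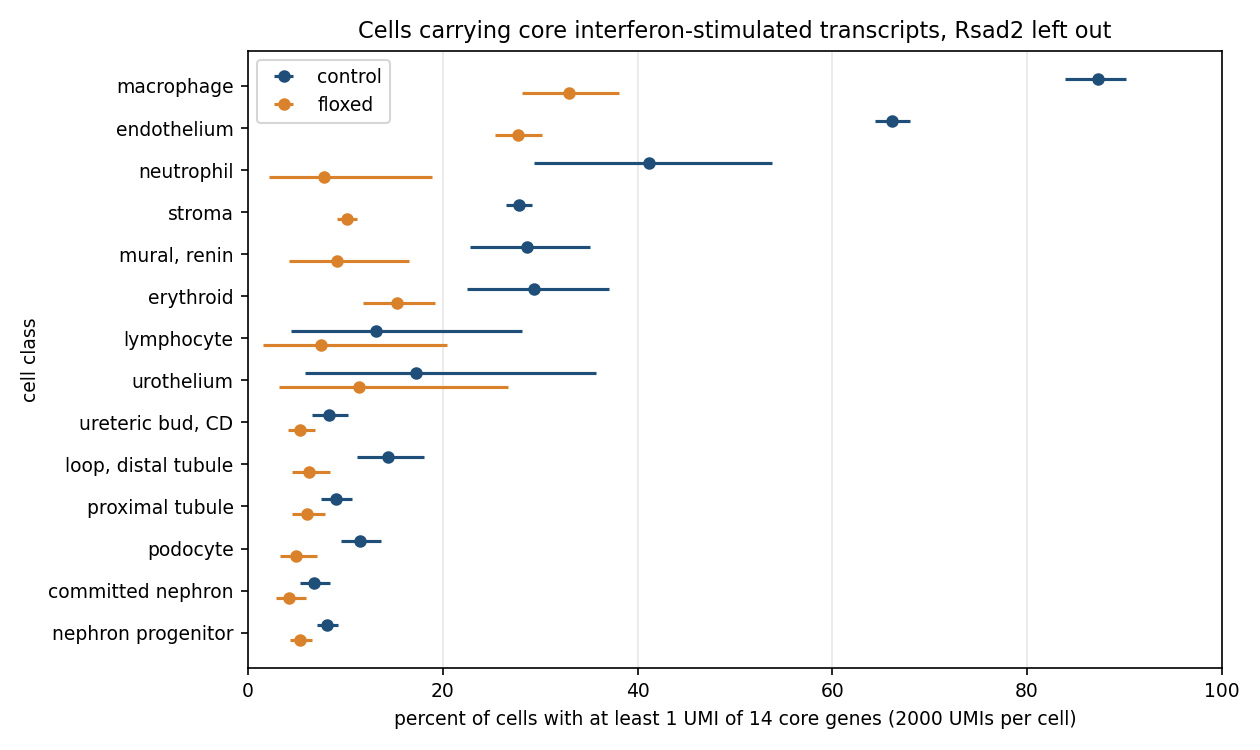
Percent of cells with at least 1 UMI of 14 core genes, Rsad2 left out, after thinning to 2000 UMIs per cell, in control (blue) and floxed (orange) cells of each class, with Clopper-Pearson 95% intervals over cells of 1 library each. Macrophage-like (87.3% and 33.0%) and endothelium-like cells (66.2% and 27.7%) lie far apart, and the nephron classes lie at low shares in both libraries.

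The plot of cells with a core UMI sets that share in the 2 libraries side by side for each class. Among control macrophage-like cells 12.7% had none and 16.7% had 6 or more, whereas among floxed ones 67.0% had none and 0.275% had 6 or more. In endothelium-like cells 33.8% of control and 72.3% of floxed cells had none, and 2.10% and 0.292% had 6 or more.

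**Figure D5:**
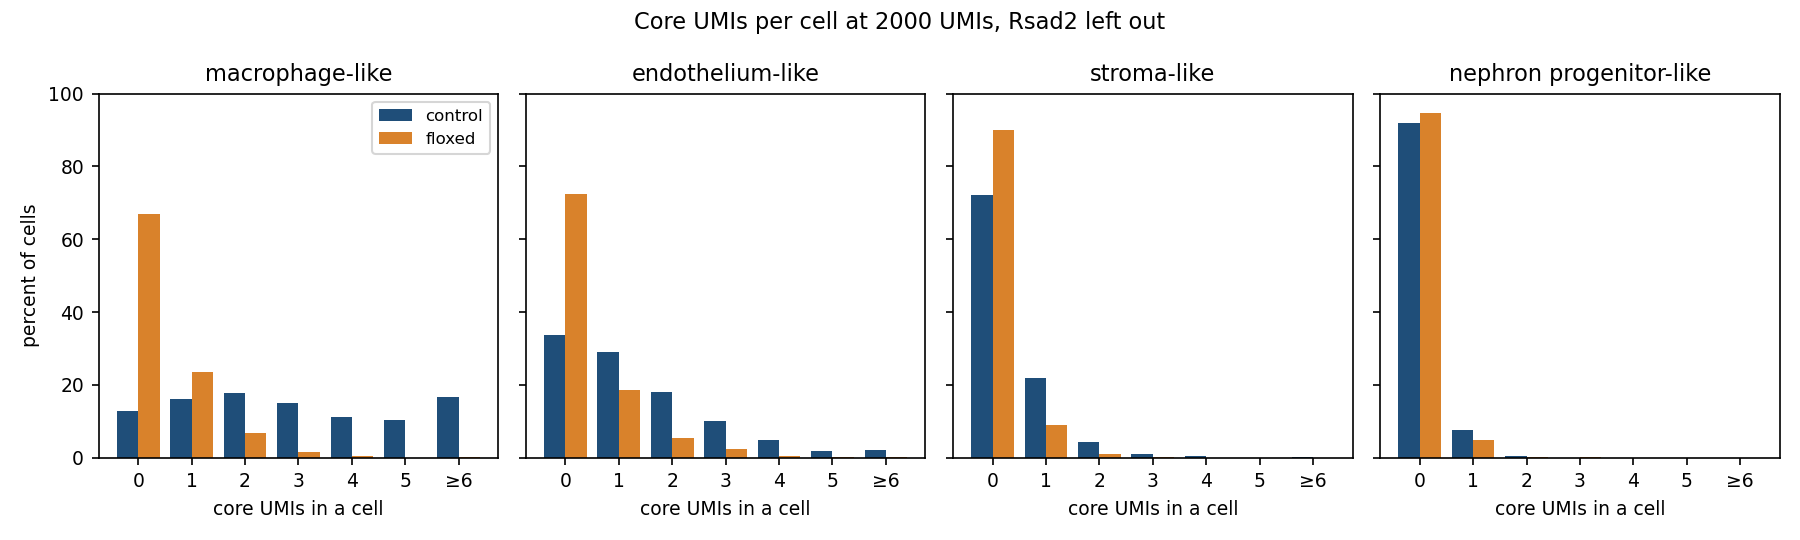
Percent of cells by their number of core UMIs (14 genes, Rsad2 left out) after thinning to 2000 UMIs, in 4 classes; blue is control and orange is floxed. Control macrophage-like cells are spread from 0 to 6 or more, while 67.0% of floxed ones have 0.

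The plot of core UMIs per cell also shows progenitor-like cells, of which 91.9% in control and 94.6% in floxed had no core UMI. Among control endothelium-like cells, another core gene apart from Rsad2 was found in 68.7% of the 627 cells with an Isg15 UMI and in 56.0% of the 2084 cells without one. In floxed endothelium-like cells the shares were 59.8% of 82 cells and 23.1% of 1286 cells. Macrophage-like cells had 91.5% and 80.1% in the control library, and 47.4% (24.4 to 71.1, 19 cells) and 29.3% in the floxed one. Stroma-like control cells had 32.4% and 22.3%. In control progenitor-like cells the share was 3.33% of 30 cells with Isg15 and 7.10% of 2746 without.

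Other genes of the pathway were read from lists of ligands, sensing adaptors, other induced genes, and MHC class I and proteasome genes. Of 21 interferon ligands, 10 control and 9 floxed UMIs were found in all. Ifng, made by T and natural killer cells, gave 3 and 7 UMIs, all in lymphocyte-like cells. Ifnz gave 6 and 1 UMIs, Ifnab 1 and 0, and Ifnk 0 and 1. No ligand UMI was found in macrophage-like, endothelium-like or progenitor-like cells. The sensing adaptors had 2 of 9 lower in macrophage-like cells, against 3.07% of all genes. None passed the rule in endothelium-like (1.67% of all genes lower), stroma-like (1.69%) or progenitor-like cells (1.49%).

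Of 68 other induced genes, 65 were in the matrices. In macrophage-like cells 26 of 36 at the level were lower (3.07% of all genes) and in endothelium-like cells 4 of 15 (1.67%). Stroma-like cells had 1 of 8 lower (1.69%) and progenitor-like cells 0 of 3 (1.49%). The list summed to 5005 and 3011 CPM in macrophage-like and 1955 and 1525 CPM in endothelium-like cells. The sums were 1690 and 1750 CPM in stroma-like and 654 and 730 CPM in progenitor-like cells. The chemokine gene Cxcl10 stood at 131 and 29.5 CPM in macrophage-like cells, and Slfn5 at 242 and 79.7 CPM. In neutrophil-like cells Slfn5 was also lower, at 49.3 and 9.07 CPM, from 17 and 3 UMIs. In that class 2 of 16 genes of the list were lower (1.12% of all genes). Another 2, Ifitm1 and Ifitm2, were higher (0.977%), and the list summed to 2653 and 4372 CPM. Sp100, of nuclear bodies, stood at 105 and 46.9 CPM in macrophage-like and 56.8 and 28.9 CPM in endothelium-like cells, Parp12 at 65.3 and 19.2 CPM and at 38.1 and 17.4 CPM, and Rnf213 at 66.9 and 20.2 CPM and at 62.2 and 13.9 CPM. Lgals9 stood at 207 and 111 CPM in endothelium-like cells and at 62.3 and 15.5 CPM in mural and renin cell-like cells. Iigp1, an immunity-related GTPase, was lower in stroma-like (84.0 and 24.2 CPM), macrophage-like (30.8 and 4.22 CPM) and mural and renin cell-like cells (43.5 and 11.04 CPM). Of the 11 MHC class I and proteasome genes, 3 of 10 at the level were lower in macrophage-like cells (3.07% of all genes). The counts were 1 of 8 in endothelium-like (1.67%), 0 of 4 in stroma-like (1.69%) and 0 of 4 in progenitor-like cells (1.49%). The antigen presentation gene B2m was lower in macrophage-like cells, at 1132 and 657 CPM, and higher in lymphocyte-like cells, at 313 and 757 CPM.

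Samd9l and Cxcl10, outside the 34, differed in direction between classes. Samd9l was higher in the floxed library in podocyte-like (11.99 and 26.3 CPM), proximal tubule-like (31.9 and 55.3 CPM) and collecting system-like cells (24.0 and 50.4 CPM), and lower in macrophage-like cells (54.3 and 22.5 CPM). Besides macrophage-like cells, Cxcl10 was lower in erythroid-like cells (46.2 and 0.547 CPM, from 38 UMIs and 1) and urothelium-like cells (11 UMIs and 0). It was higher in podocyte-like cells, at 3.35 and 26.6 CPM, and in lymphocyte-like cells, at 15.5 and 97.8 CPM, the latter from 4 and 19 UMIs. The podocyte-like class was made of clusters 3 and 19 in unlike proportions (434 control and 93 floxed cells in cluster 19).

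Genes with and without an exact match to the response element core were set side by side. With 1 mismatch allowed 25 of 27 genes held the core, so this split cannot tell genes with the element from genes without it. In macrophage-like cells 11 of 13 genes at the level with an exact match were lower (median log2 ratio -1.85). Without one 8 of 11 were (-2.03), against 3.07% of all genes. In endothelium-like cells the counts were 8 of 10 (-1.08) and 6 of 11 (-1.13), against 1.67%. Rsad2, which passed the rule in macrophage-like cells alone, and Oas1a, which passed in no class, hold exact matches. Irf7, Oasl1 and Oasl2, which were lower by the rule in macrophage-like cells, do not within this window. The windows of the 34 genes that were matched held a median of 7 CpG pairs, as did all promoters.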

How the data were processed

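UMI counts per gene and barcode were deposited by the authors as filtered matrices, made with Cell Ranger 6.0.1 per the file headers (6.0.2 and mm10 per the submitters' processing notes). No further normalisation was recorded there. Barcodes with at least 1000 UMIs, 500 genes and under 15% mitochondrial UMIs were kept. Scrublet's automatic threshold marked 0 barcodes in both libraries, so the 8% with the highest doublet scores in each were removed. Cells were clustered with scanpy 1.11.5 (2000 variable genes, 30 components, 15 neighbours, Leiden resolution 1), leaving out the 34 genes and the other interferon genes. Clusters were named from fixed marker lists. UMIs were summed per class and library, with exact conditional binomial intervals for ratios, Poisson intervals for levels and Clopper-Pearson intervals for shares (scipy 1.17.1), and Wald intervals for differences of log2 ratios. In medians, genes at 0 were set to a floor of 3 counts. The procedure was tested on simulated data. No test across animals was possible, so no p-value is given.

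The 34 genes, the other lists and the rules were chosen with earlier results of these data known. Genes were given values if they passed the size rule in a named class or had an interval above 1 at 5 CPM or more, and genes of the other lists were named if they passed in at least 2 classes. Interferon ligands with any UMI, Tet2, Tet3, Ifitm1 and Ifitm2 were also named. Alternatives covered the cell filter, barcodes, doublets, clustering, scaling (TMM from edgeR 4.0.16, median of ratios), the size rule, thinning and the motif. Promoter windows came from RefSeq, GRCm38.p6. The list of receptors and kinases is not reported here.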

Additional observations from a re-analysis of the deposited data

Results flagged for a closer look

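Differences between classes in the log2 ratio of floxed over control are given for 5 genes that had opposite directions in 2 classes, each with its counting interval beyond no change. With 1 library per genotype none was tested across animals. Ifit2 was 4.86 higher in progenitor-like than in macrophage-like cells (3.996 to 5.72), where the progenitor value rests on 112 control and 104 floxed UMIs. Rsad2 was 4.34 higher in mural and renin cell-like than in macrophage-like cells (3.30 to 5.38), from 25 and 19 UMIs in the former. Ddx58 was 2.44 higher in collecting system-like cells than in mural and renin cell-like cells (0.35 to 4.53), which held 19.5 CPM in control and 4.42 CPM in floxed. Ly6e was 1.65 higher in endothelium-like than in macrophage-like cells (1.52 to 1.77). Eif2ak2 was 1.48 higher in collecting system-like than in macrophage-like cells (1.09 to 1.87).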

How the results depend on the processing

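No paired analysis was possible because the 2 genotypes share only replicate number 1. The 75 gene and class pairs called lower gave 961 values under the alternatives, of which 897 kept their direction and side of the rule, 61 kept the direction alone and 3 reversed. No pair changed under TMM or median of ratios scaling. In 180 alternative class counts, a gene was called higher once, Rsad2 in mural and renin cell-like cells with the 10000 deepest barcodes (63 control and 42 floxed cells). The count of genes lower in progenitor-like cells was 1 in place of 3 with the 10000 deepest barcodes, without doublet removal, at Leiden resolution 0.5 and with the interferon genes used for clustering, and 5 with a minimum of 10 CPM. In stroma-like cells it was 15 with 10 CPM and 4 with a 2-fold rule in place of 8. In macrophage-like cells it was 13 in cluster 20 alone, which was chosen after seeing the data, in place of 25. A change of the level or the fold also changes how many of all genes are tested or pass. The shares of all genes under these other settings are not given here, so the counts show only how the calls move.

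With the 10000 deepest barcodes the median log2 ratio in mural and renin cell-like cells was 0.15, and Isg15 had 1.39 in neutrophil-like and 0.22 in erythroid-like cells, which then numbered 10 control and 20 floxed and 37 and 182. In lymphocyte-like cells the median was -0.46 with the looser filter, -1.51 at resolution 2 and -0.91 at a 25 CPM minimum, and Ifitm3 was 0.21 with the looser filter. The cause of these changes was not tested.

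The share of cells with a core UMI differed between control and floxed, in percentage points, by 54.5 in macrophage-like cells (43.1 without thinning, 42.1 at 4000 UMIs), 19.0 in endothelium-like cells (16.0 without thinning, 22.4 at 1000 UMIs, 14.4 at 4000, 38.5 without Rsad2), 18.0 in stroma-like cells (33.9 without thinning, 10.4 at 1000 UMIs, 26.7 at 4000, 11.2 without Isg15, Ifit1 and Ifit3) and 3.59 in progenitor-like cells (16.5 without thinning, 2.35 at 1000 UMIs, 6.14 at 4000, 2.15 without Isg15, Ifit1 and Ifit3, 2.75 without Rsad2). With 1 mismatch allowed, 92.6% of the genes with a window held the response element core, against 38.9% of all genes. Few floxed UMIs limit the Ifit folds in macrophage-like cells, and few cells limit the neutrophil, lymphocyte and urothelium classes.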
